A study of Mus musculus with 8 samples.

Results

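Aquaporins are the water and glycerol channels of the cell membrane, and 10 of their genes (Aqp1, Aqp2, Aqp3, Aqp4, Aqp5, Aqp6, Aqp7, Aqp8, Aqp9 and Aqp11) were measured in AtT20 cells, a mouse pituitary tumor line of corticotrophs, the cells that secrete ACTH. The 10 genes are a named list of family members and not the whole family, and no measured value enters the rule that lists them. They make up 10 of the 19747 named genes on the array. They were read by 15 of its 39429 probes, since Aqp4, Aqp5, Aqp6, Aqp8 and Aqp11 have 2 probes each. RNA came from 4 control samples and 4 samples given 10 μM HX630, all harvested after 48 hr, and each sample was read on 1 Agilent array in a single color. HX630 is a synthetic agonist of the retinoid X receptors (RXRs), nuclear receptors that bind DNA in pairs with each other or with partners such as the PPARs. Both groups were the same line in medium with 1% stripped serum. The labels describe the control only as cells without the agonist, which the methods dissolved in DMSO, and whether controls received DMSO is not stated there.

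Each aquaporin folds into a pore that lets small uncharged molecules pass down their gradient, and the family divides by what the pore admits. Aqp1, Aqp2, Aqp4, Aqp5, Aqp6 and Aqp8 belong to the water channel branch, Aqp3, Aqp7 and Aqp9 also carry glycerol and are called aquaglyceroporins, and Aqp11 is a distant member that resides inside the cell. They are best known from kidney, salivary gland, brain and fat, and a pituitary tumor line is not among the tissues where most of them were described.

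Single aquaporins differed between the control and HX630 arrays, which lay on separate slides, so HX630 and slide cannot be told apart. Aqp1, Aqp5 and Aqp8 fell, Aqp1 to 34.3% of control, Aqp8 to 38.9% and Aqp5 by at least 7.52-fold on the processed signal, a bound that another background treatment lowered. One probe of Aqp4 rose by 1.84-fold from signals close to the background, while its other probe was not called. One probe of Aqp6 was higher from control signals mostly not well above background, so its 2.03-fold rise is a description only. Neither call held under that background treatment. Aqp2, Aqp7 and Aqp11 differed by less than 1.5-fold, and Aqp3 and Aqp9 could not be tested because they lay near or below background in both groups.

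A probe was tested when 4 or more of the 8 arrays read it well above the local background, and it was called when limma gave a Benjamini-Hochberg adjusted p below 0.01 over all tested probes and a fold change above 1.5. Of the 15 aquaporin probes, 10 were tested and 5 of those were called, 2 higher and 3 lower. Over all 28553 tested probes 18.6% were called, 7.47% higher and 11.1% lower. The groups did not overlap for 9 of the 10 tested aquaporin probes, against 55.7% of all tested probes. A probe of Aqp5 and a probe of Aqp6 entered the test only through the group in which they were higher, so these counts over tested probes are a description. The median log2 fold change was -0.24 over the 10 aquaporin probes and -0.06 over all tested probes, with 6 aquaporin probes lower and 4 higher.

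The regulatory sequence just upstream of Aqp1, Aqp5, Aqp6 and Aqp8 is shown because Aqp1, Aqp5 and Aqp8 were lower with HX630. Aqp6, the neighbor of Aqp5, was higher on 1 probe that was dim in control. Of the 10 genes, all but Aqp4 have a promoter window in the RefSeq table used (build GRCm38.p6), and the 250 bases before the transcript start are given 5′ to 3′. Capitals mark ACGTG on either strand, the core shared by the E-box CACGTG and by hypoxia response elements.
Aqp1, chr6:55336049-55336298, plus strand: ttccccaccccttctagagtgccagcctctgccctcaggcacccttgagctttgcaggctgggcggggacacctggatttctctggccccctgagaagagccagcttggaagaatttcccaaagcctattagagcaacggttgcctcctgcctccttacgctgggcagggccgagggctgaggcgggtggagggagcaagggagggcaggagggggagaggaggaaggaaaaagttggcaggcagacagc
Aqp5, chr15:99590778-99591027, plus strand: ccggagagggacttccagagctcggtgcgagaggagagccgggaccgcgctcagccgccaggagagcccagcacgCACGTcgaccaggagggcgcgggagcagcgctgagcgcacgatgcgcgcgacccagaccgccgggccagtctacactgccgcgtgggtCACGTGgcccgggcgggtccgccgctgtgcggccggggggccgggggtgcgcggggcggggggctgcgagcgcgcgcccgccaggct
Aqp6, chr15:99600950-99601199, plus strand: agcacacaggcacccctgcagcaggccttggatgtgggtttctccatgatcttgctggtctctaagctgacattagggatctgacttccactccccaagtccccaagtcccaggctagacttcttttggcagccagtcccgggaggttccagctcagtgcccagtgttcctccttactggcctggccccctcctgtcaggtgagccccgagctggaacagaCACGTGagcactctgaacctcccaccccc
Aqp8, chr7:123462044-123462293, plus strand: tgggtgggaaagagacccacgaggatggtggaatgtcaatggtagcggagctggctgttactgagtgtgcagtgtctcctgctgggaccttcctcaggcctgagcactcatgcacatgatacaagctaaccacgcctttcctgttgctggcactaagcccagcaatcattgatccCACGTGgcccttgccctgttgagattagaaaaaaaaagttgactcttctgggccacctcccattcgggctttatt

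The Aqp5 window stood apart in composition, with 78.4% G and C and 38 CpG pairs, where the median over all 32851 windows was 52.4% and 6 CpG pairs. The Aqp6 window held 59.6% G and C and 3 CpG pairs, Aqp8 52.4% and 5, and Aqp1 62% and 5. ACGTG was present in the windows of Aqp5, Aqp6 and Aqp8, in each as the palindrome CACGTG, which reads the same on both strands and so counts as a pair of overlapping matches. Aqp1 had none, and 5 of the 9 genes had a match in a window, Aqp2 and Aqp9 being the others. Over all windows 16.6% held ACGTG. The letters were chosen after the sequences had been read, so the match is a description of these windows only. AGGTCA, the hexamer that RXR and its partners bind, was found in neither direction in the 4 windows shown, was found in those of Aqp7 and Aqp11, and stood in 14% of all windows. The direct repeat AGGTCANAGGTCA was in none of the 11 aquaporin windows and in 0.0335% of all windows.

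Signals are given as the log2 of the processed intensity minus the 75th percentile of the same array, so 0 is the level of that percentile and a step of 1 is a 2-fold change. Probes bind with different strength, so heights are compared between groups for 1 probe and not between probes.

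**Figure D1:**
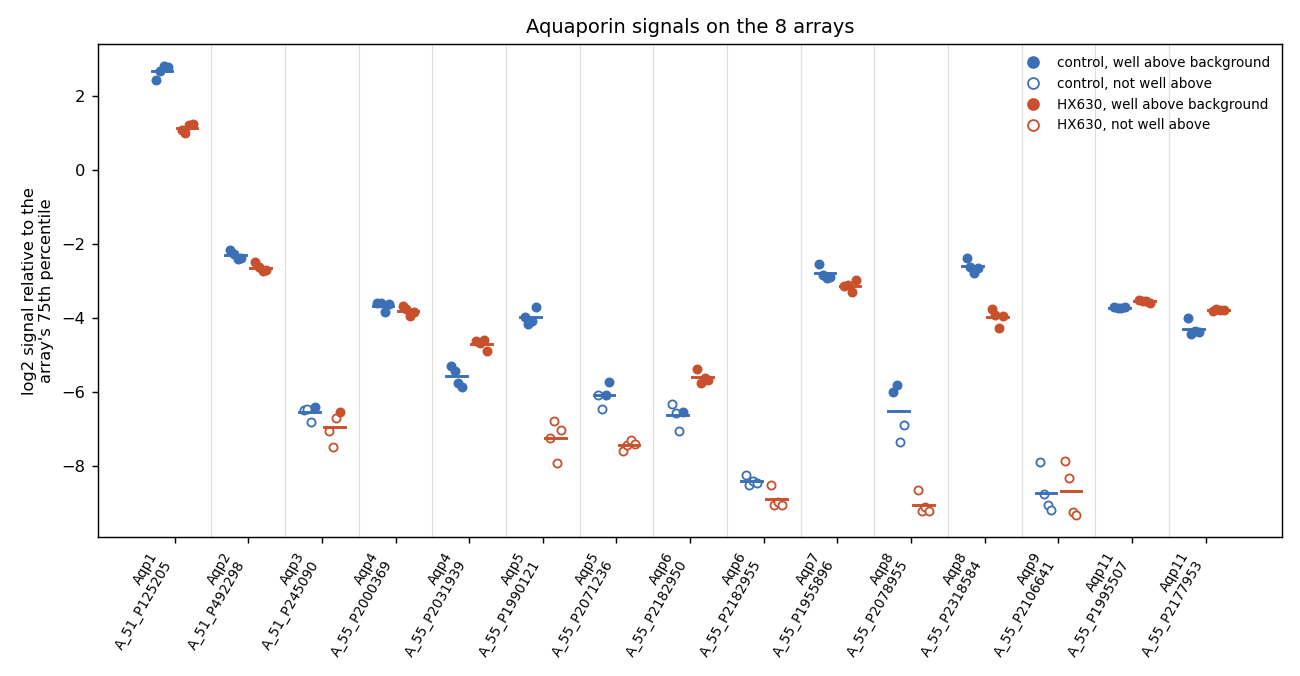
Log2 signal relative to the array's 75th percentile (vertical axis) for each of the 15 aquaporin probes (horizontal axis) on the 4 control and 4 HX630 arrays, with a bar at each group mean and open circles where the signal was not well above background. Aqp1, Aqp5 and Aqp8 separate downwards with HX630, while Aqp3, Aqp9 and 1 probe of Aqp6 lie among open circles in both groups. Heights of different probes cannot be compared.

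Aqp1 is the constitutive water channel of red cells, kidney proximal tubule and small vessels. Its probe A_51_P125205 read 2.45, 2.69, 2.81 and 2.79 on control arrays 1 to 4 and 1.09, 1.00, 1.22 and 1.26 on HX630 arrays 1 to 4. All control arrays were above all HX630 arrays, and every array was well above background. The log2 signal averaged 2.68 ± 0.167 in control and 1.14 ± 0.12 with HX630 (SD, n = 4 each). The log2 fold change was -1.54 (SE 0.0952, 95% confidence interval -1.76 to -1.32) with an adjusted p of 5.23e-06 by limma. Of all tested probes, 2.53% changed by more, in either direction.

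Aqp1 also marks small vessels and red cells, so the markers of those cells were read beside it. Of 4 endothelial markers, Cdh5 and Tek, which define the type, were well above background on no array, and the summed level of the list ranged from 2.71 to 3.36 times the 75th percentile in control and from 2.15 to 2.64 with HX630. In it Pecam1 fell by 0.59 on the log2 scale and Kdr had a log2 fold change of -0.36 without a call. The red cell gene Hba-a1, a globin, fell by 1.04 on the log2 scale. The part of these genes in the Aqp1 result was not tested. In RNA from whole cultures, fewer cells of a type and less RNA per cell cannot be told apart.

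Aqp5 is the water channel at the apical membrane of salivary, tear and airway glands. Probe A_55_P1990121 read -3.99, -4.17, -4.07 and -3.70 on the control arrays, all well above background. It read -7.25, -6.80, -7.93 and -7.04 on the HX630 arrays, none of them well above background. With HX630 the transcript was therefore known only to lie at or under the detection limit, and the fall is a bound of at least 7.52-fold, set against the dimmest signals that were well above background on the HX630 arrays. The fitted log2 means were -3.98 ± 0.202 and -7.25 ± 0.486 (SD, n = 4 each), with an adjusted p of 1.2e-05 by limma. The probe entered the test only through its control arrays, so this p is given as a description. Under normexp, which models the background from the median spot intensity, the log2 fold change was -1.98, a smaller fall than the bound, so the bound holds for the processed signal only. The second probe, A_55_P2071236, was well above background on 2 control arrays and no HX630 array and was not tested. It read -6.08, -6.46, -6.09 and -5.73 in control and -7.61, -7.44, -7.30 and -7.43 with HX630. Control arrays 1 and 2 were not well above background either, so no fold is given for this probe.

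Aqp8 passes water, ammonia and hydrogen peroxide and is known from colon, pancreas and liver. Probe A_55_P2318584 read -2.37, -2.62, -2.79 and -2.64 on the control arrays and -3.76, -3.91, -4.26 and -3.94 on the HX630 arrays. The groups were apart by more than the range of either, and all 8 arrays were well above background. The log2 fold change was -1.36 (SE 0.125, 95% confidence interval -1.65 to -1.07), a 2.57-fold fall with an adjusted p of 4.62e-05 by limma. The second probe, A_55_P2078955, was well above background on control arrays 1 and 2 only, at -6.00 and -5.81, and read -7.36 and -6.91 on control arrays 3 and 4. On the HX630 arrays it read -8.67, -9.23, -9.11 and -9.24, none of them well above background. Control arrays 3 and 4 were not well above background either, so no fold is given for this probe. The tested probes of Aqp5 and Aqp8 were thus lower on every HX630 array than on any control array. Their second probes were well above background on some control arrays and no HX630 array.

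Aqp2, Aqp5 and Aqp6 lie side by side on chromosome 15 in the RefSeq gene order, on the same strand with no gene listed between them. The Aqp5 start lies 12 kb beyond the Aqp2 start and the Aqp6 start another 10.2 kb on. Of these neighbors, Aqp5 fell and Aqp2 was 1.27-fold lower without a call. Aqp6 was higher on a probe mostly not well above background in control, and normexp took that change to 0.05. Whether the neighbors moved together was not tested. Aqp7 and Aqp3 are also close to each other on chromosome 4, with 1 listed gene between them. Aqp7 was not called, and Aqp3 could not be tested.

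Aqp2 is the vasopressin-regulated water channel of the kidney collecting duct. Probe A_51_P492298 read -2.16, -2.27, -2.39 and -2.37 in control and -2.50, -2.63, -2.73 and -2.70 with HX630, well above background throughout. The groups did not overlap, though the nearest arrays, control 3 and HX630 1, were close. The log2 fold change of -0.34 (SE 0.0724, 95% confidence interval -0.51 to -0.17) had an adjusted p of 0.00434 by limma and did not reach the 1.5-fold threshold.

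Aqp6 is a kidney member that resides on intracellular vesicles and conducts anions. Probe A_55_P2182950 read -6.34, -6.57, -7.06 and -6.54 on the control arrays, of which only control 4 was well above background. It read -5.38, -5.77, -5.63 and -5.67 with HX630, where all 4 arrays were well above background and all were higher than any control array. The log2 fold change was 1.02 (SE 0.156, 95% confidence interval 0.66 to 1.38, adjusted p 0.000808 by limma). The probe entered the test only through its HX630 arrays, and the control mean rests mostly on signals not well above background, so the fold and its p are a description. When the background was instead modeled with normexp from the median spot intensity, the change shrank to 0.05 and the call was lost. The other probe, A_55_P2182955, was well above background on no array and read from -8.25 to -8.52 in control and from -8.53 to -9.06 with HX630, so it gave no level for Aqp6.

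Aqp4 is the main water channel of brain astrocytes, and its probes did not move together. Probe A_55_P2000369 read -3.61, -3.60, -3.85 and -3.62 in control and -3.68, -3.76, -3.95 and -3.84 with HX630. These ranges overlap, and the log2 fold change of -0.14 (SE 0.0781, 95% confidence interval -0.32 to 0.04) had an adjusted p of 0.163 by limma. Probe A_55_P2031939 read -5.29, -5.43, -5.75 and -5.87 in control and -4.63, -4.69, -4.60 and -4.90 with HX630, with every HX630 array higher. Its log2 fold change of 0.88 (SE 0.137, adjusted p 0.000856 by limma) was called. Under normexp it was 0.11 and not called, with median spot intensities of 76.9 in control and 109.5 with HX630. Aqp4 therefore had a called and an uncalled probe with opposite signs, and no single direction is given for the gene. Of the 2 glial markers listed, S100b was well above background on no array and Gfap rose by 0.97, and their summed level ranged from 0.013 to 0.0184 times the 75th percentile in control and from 0.0265 to 0.0358 with HX630. Their part in the Aqp4 result was not tested.

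Among the aquaglyceroporins, Aqp7 lets glycerol out of fat cells and was the one that could be tested. Probe A_55_P1955896 read -2.54, -2.83, -2.92 and -2.89 in control and -3.14, -3.12, -3.29 and -2.98 with HX630. The HX630 arrays lay just under the control arrays, and the log2 fold change of -0.34 (SE 0.0988, 95% confidence interval -0.57 to -0.11) had an adjusted p of 0.0192 by limma and was not called. Aqp3, which serves skin and kidney, was well above background on 1 control and 1 HX630 array, between -6.81 and -6.41 in control and between -7.48 and -6.56 with HX630. Aqp9, the glycerol channel of liver, was well above background on no array and overlapped between groups, from -9.20 to -7.90 in control and from -9.33 to -7.87 with HX630. For Aqp3 and Aqp9 a difference was not detectable at these signals.

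Aqp11 resides in the endoplasmic reticulum, and both of its probes were well above background on all 8 arrays. Probe A_55_P1995507 read -3.72, -3.73, -3.73 and -3.70 in control and -3.52, -3.55, -3.54 and -3.60 with HX630. These were the tightest groups of any aquaporin probe in control, with an SD of 0.0145, and they did not overlap. The log2 fold change was 0.17 (SE 0.032, adjusted p 0.00256 by limma). Probe A_55_P2177953 read -3.99, -4.44, -4.35 and -4.37 in control and -3.82, -3.76, -3.79 and -3.79 with HX630, a log2 fold change of 0.50 (SE 0.0941, adjusted p 0.00247 by limma). Both changes passed the p threshold and fell short of the fold threshold. Control replicate 1 was the highest control array for the second probe, and without it the change was 0.60 and was called. Under normexp it was 0.15 (adjusted p 0.343 by limma), and the first probe was at -0.02.

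**Figure D2:**
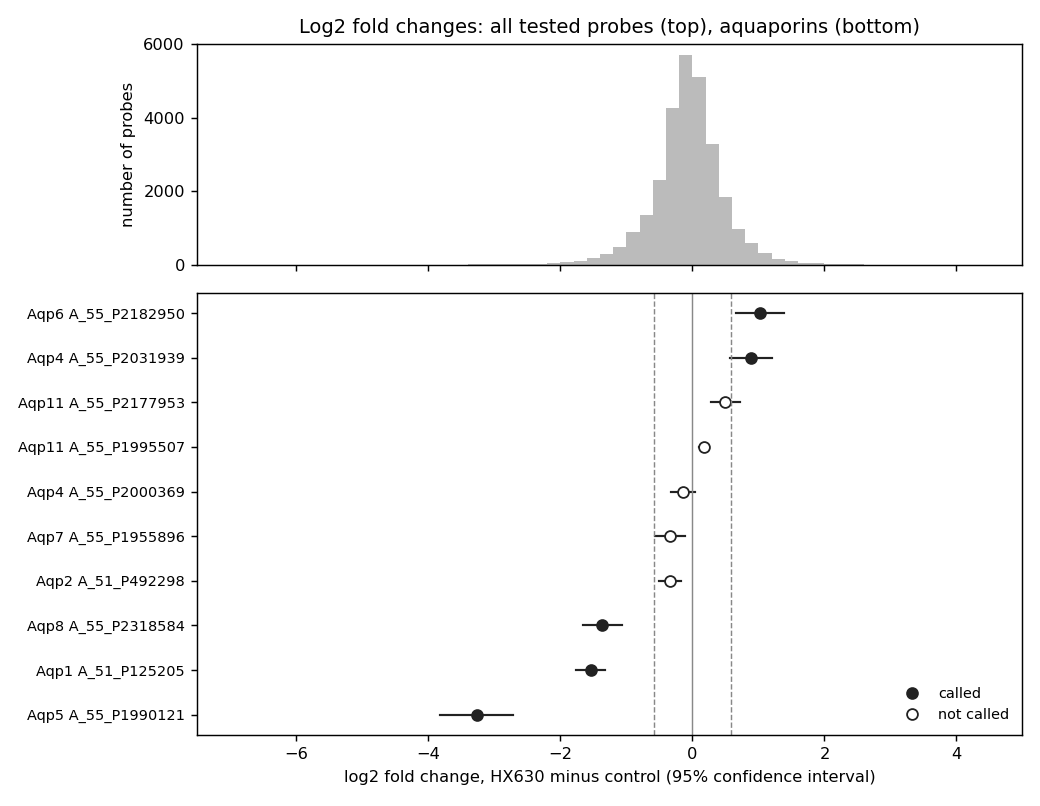
Log2 fold change, HX630 minus control, of all 28553 tested probes as a histogram (top) and of the 10 tested aquaporin probes with 95% confidence intervals (bottom, n = 4 arrays per group). Filled circles are called probes and dashed lines mark a 1.5-fold change. Aqp5, Aqp1 and Aqp8 lie in the lower tail, and the fitted Aqp5 value rests on HX630 signals that were not well above background.

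The spread between replicates was uneven, from an SD of 0.0145 for Aqp11 to 0.739 for the untested probe of Aqp8 in control. Processing bore on the called probes unequally, as the plot of alternatives shows. Aqp1 stayed between -1.65 and -1.32, Aqp8 between -1.43 and -1.14 and Aqp5 between -3.42 and -1.98, and all 3 were called under every alternative in which they were tested. The rises of Aqp4 and Aqp6 on these probes were called under all but normexp, apart from the filter of all 8 arrays, which left the Aqp6 probe untested. The mean of both probes of a gene gave 0.37 for Aqp4 and 0.26 for Aqp6, and neither was then called. By that mean, which takes in signals not well above background, Aqp8 was at -1.95 and Aqp5 at -2.31.

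**Figure D3:**
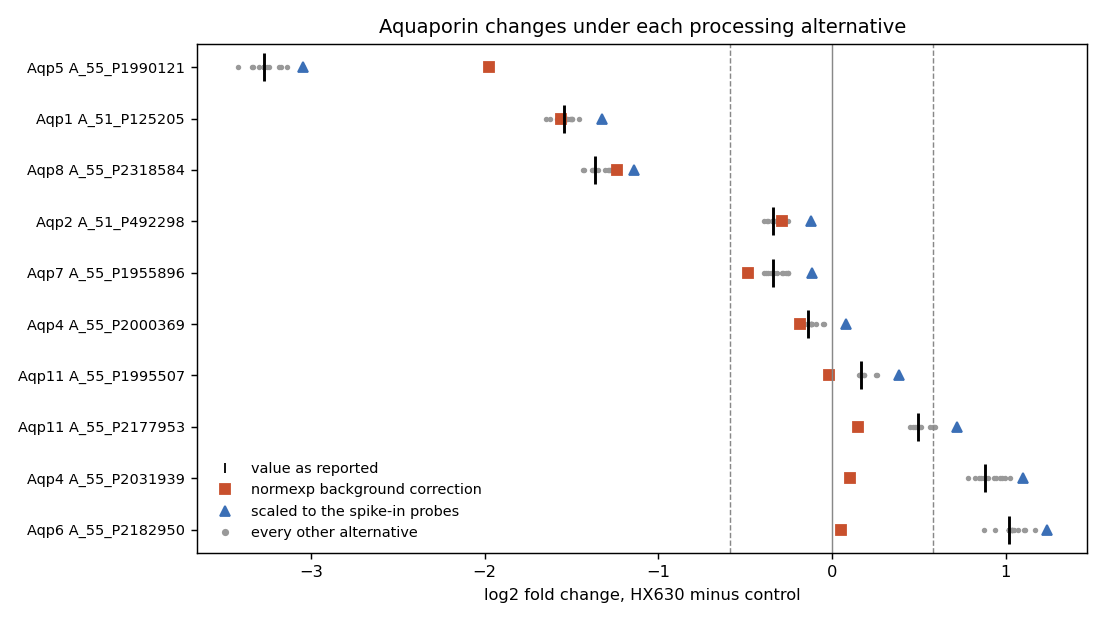
Log2 fold change, HX630 minus control (horizontal axis), of each tested aquaporin probe as reported (black bar) and under each processing alternative (points), with dashed lines at a 1.5-fold change. The normexp squares of Aqp4 A_55_P2031939 and Aqp6 lie close to 0, at 0.11 and 0.05, while those of Aqp1, Aqp5 and Aqp8 stay below the lower dashed line.

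Genes that matched the called aquaporins most closely across the 8 arrays were found by the root mean square difference of the log2 signals, each taken from the probe's own control mean. Nearest to Aqp1 were Riiad1 (difference 0.0396, log2 fold change -1.59), Snhg6 (0.0633 and -1.53) and Espn (0.0744 and -1.53). Nearest to Aqp8 were Bpifa3 (0.0655 and -1.28), Copz2 (0.0722 and -1.34) and Kcnj15 (0.0934 and -1.41). Nearest to the called probe of Aqp4 were Apcdd1 (0.0881 and 0.93), Pou2f2 (0.0912 and 0.92) and Ccdc65 (0.0933 and 0.84). Espn bundles actin in hair cells and microvilli and Kcnj15 is a potassium channel, and the likeness is over 8 arrays of 2 groups only.

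Water channels work with ion pumps, transporters and sensors that set the cell's osmotic balance. Of 34 genes of osmotic response and cell volume, 32 were tested, 4 rose and 5 fell, where 7.47% and 11.1% of all tested probes did, with a median log2 fold change of -0.06. The largest fall was that of Trpv4, a calcium channel opened by hypotonic swelling, whose log2 signal went from 0.32 ± 0.0341 to -2.99 ± 0.17 (SD, n = 4 each) with a log2 fold change of -3.32 (SE 0.0813, adjusted p 1.23e-07 by limma), and both of its probes were called lower. Atp1b1, a subunit of the sodium pump, fell by 1.59 on the log2 scale, and Sgk1, a kinase induced by hypertonicity and steroids, fell by 1.19. Slc14a2, a urea transporter, rose by 1.73, and Slc12a7 and Slc12a5, potassium-chloride cotransporters that lower cell volume, rose by 1.27 and 1.14, though a second probe of Slc12a5 was not called. The volume-regulated anion channel genes Lrrc8a, Lrrc8b, Lrrc8c, Lrrc8d and Lrrc8e were all tested and none was called, nor was Nfat5, the transcription factor of hypertonic stress, at -0.11 (SE 0.105).

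**Figure D4:**
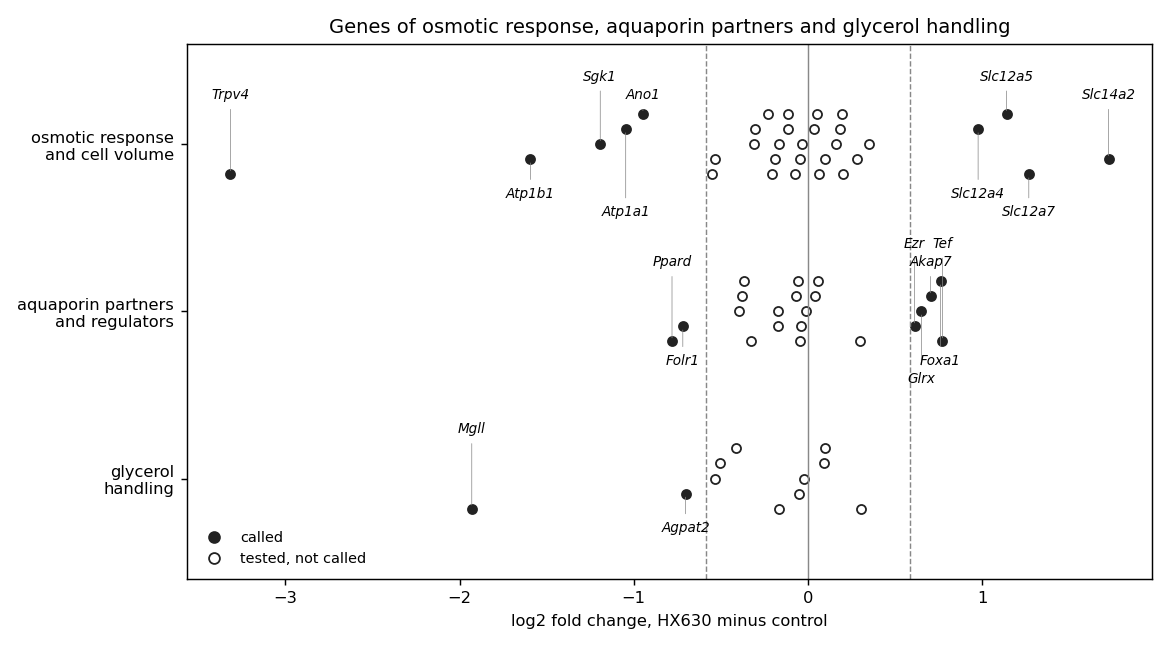
Log2 fold change, HX630 minus control (horizontal axis), of the tested genes of 3 lists, 1 probe per gene, with called genes filled and named and dashed lines at a 1.5-fold change. Trpv4 lies farthest to the left at -3.32 and Slc14a2 farthest to the right at 1.73, and most genes of each list lie between the dashed lines.

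Of 26 partners and regulators of aquaporins, 21 were tested, 5 rose and 2 fell, where 7.47% and 11.1% of all tested probes did, with a median of -0.05. Tef, a clock-output transcription factor, rose by 0.77 on the log2 scale, Foxa1, a pioneer factor, by 0.76, and Akap7, an anchor of protein kinase A, by 0.71 on 1 of its 3 tested probes. Ppard, an RXR partner, fell by 0.78, and Folr1, a folate receptor, fell by 0.72. Both falls lost their calls when the arrays were scaled to spike-in probes. Tef, Folr1 and Glrx came into this list from a network that the study built on these same samples, so their calls are no independent evidence. Avpr2, the vasopressin receptor that governs Aqp2 in kidney, was not called at 0.06 (SE 0.0515), and Kcnj10, a potassium channel found beside Aqp4 in astrocytes, was well above background on no array. Of 12 glycerol-handling genes with a probe, 11 were tested and 2 fell, where 11.1% of all tested probes did, with a median of -0.17. Mgll, the monoglyceride lipase, fell by 1.93 on its brightest probe and was called lower on 3 of 4 tested probes. Agpat2, an acyltransferase, fell by 0.70. When the arrays were scaled to spike-in probes, 1 of these calls was lost.

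The arrays themselves were alike. The 75th percentile of intensity lay between 1335 and 1862 in control and between 1802 and 1900 with HX630 (exact permutation p = 0.114), and from 69.7% to 73.5% of probes were well above background on an array. The control arrays shared 1 slide and the HX630 arrays shared a different slide, so slide and treatment cannot be told apart for any value given. Of 10 corticotroph markers 9 were well above background on all arrays, Pomc and Tbx19 among them, and Avpr1b on none. Of 21 markers of other cells with a probe, 7 were well above background on no array, Prl, Tshb and S100b among them, 1 rose (Gfap) and 3 fell (Gh, Pecam1 and Hba-a1), and their part in the aquaporin results was not tested beyond the values given for Aqp1 and Aqp4. The labels do not say whether replicates came from separate cultures, so the p-values measure only the spread between these samples. For a single aquaporin probe the exact permutation test over 70 regroupings could not go below 0.0286, the value reached by each of the 9 tested probes whose groups did not overlap.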

How the data were processed

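The authors deposited Feature Extraction 10.7.3.1 files, with a background-subtracted processed intensity and a median intensity per spot, and a table of log2 values. The deposited log2 values matched the processed signal on a log2 scale less each array's 75th percentile and served as an alternative. In R 4.3.3 with limma 3.58.1, 1377 control spots and outlier spots were dropped, the log2 processed intensity was scaled to the 75th percentile, and lmFit and eBayes compared 4 arrays per group without a block. Probes were named through RefSeq for GRCm38.p6, which matched 66.1% of 39429 probes, and promoter sequences come from the same build. An at-least fold uses, on each array of the dim group, the higher of the probe's own signal and the lowest signal well above background. Probes named are every aquaporin probe, up to 3 called genes per list and direction, the 3 nearest patterns and defining markers. The members and lists were chosen with earlier results of these data known. A listed marker is not reported here. The code was tested on simulated data. Lists use 1 probe per gene, the brightest tested. The number of arrays limits the precision.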

Additional observations from a re-analysis of the deposited data

Results flagged for a closer look

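In 2 of 30 groups of 4 arrays, a single array lay far from the other 3 (Dixon's criterion, on the gap to the nearest array over the whole range). Chance gives this in about 1 in 20 groups. For Aqp4 probe A_55_P2000369, control replicate 3 read -3.85 where the median of the other control arrays was -3.61, a gap of 0.939 of the range. Without that array the difference between groups was -0.20 instead of -0.14 and was still not called. For Aqp6 probe A_55_P2182955, HX630 replicate 1 read -8.53 where the median of the others was -9.06, a gap of 0.858 of the range. That probe was well above background on no array.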

How the results depend on the processing

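The count of aquaporin probes called stayed at 5 under 17 of 25 alternatives. It was 3 under normexp, which used the median spot intensity with an offset of 16, 3 when a probe had to be well above background on all 8 arrays (Aqp5 and Aqp6 were then not tested) and 8 with no fold change threshold, where 12999 of all probes were called instead of 5313. It was 7 with a filter of 1 array or none, as the second probes of Aqp5 (-1.36) and Aqp8 (-2.54) were then called. Normexp ended the calls of Aqp4 A_55_P2031939 (0.11) and Aqp6 A_55_P2182950 (0.05), turned Aqp11 A_55_P1995507 to -0.0159 and took Aqp5 to -1.98, a smaller fall than its bound. Scaling to 8 spike-in probes moved the median of all probes by 0.22, raised the share of all calls that were higher from 40.1% to 68.9%, turned Aqp4 A_55_P2000369 to 0.0819 and left 1 glycerol-handling gene called instead of 2. Scaling to the median gave 51.6% and quantile normalization 49.8% higher, with 5 and 6 aquaporin probes called. Aqp11 A_55_P2177953 was called under quantile normalization, spike-in scaling and without control replicate 1. The mean of both probes turned Aqp4 to 0.37, which was not called, and left Aqp6 uncalled at 0.26 (exact permutation p = 0.114). Leaving out 1 array gave 5 or 6. The cause of the normexp and spike-in shifts was not tested. Same-numbered arrays correlated at 0.52, -0.01, 0.24 and 0.38 in their deviations from the group means. For numbers 2 and 3 another pairing was higher (0.0796 and 0.264), and for numbers 1 and 4 every other pairing was lower (at most 0.178 and 0.228). The replicate number was also the position of the array on its slide in both groups. These values do not settle whether the numbers pair the samples. With the replicate number as a block, 5 aquaporin probes and 5556 of all probes were called. Dim signals limit Aqp3, Aqp5, Aqp6 and Aqp9, for which signals near background carry no order.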

Other observations

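A pair of family members outside the 10 genes was read after their values were seen. Aqp12, known from pancreas, was well above background on no control array and on all 4 HX630 arrays, at -5.77, -6.00, -6.38 and -5.77, and was at least 1.84-fold higher with HX630. It entered the test only through the HX630 group. Mip, the water channel of the eye lens, was well above background on no array.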
